A study of Homo sapiens with 8 samples.

Results

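NF-kappaB is a family of transcription factors that carries signals from inflammatory receptors to the nucleus. The genes followed here are the 5 genes of its DNA-binding subunits (RELA, RELB, REL, NFKB1 and NFKB2) and 5 genes that its dimers are known to induce and that act back on the pathway (NFKBIA, NFKBIE, TNFAIP3, BIRC3 and TRAF1). They were found by symbol in the deposited table of 58870 genes: all 10 had 1 row each, and all 10 were among the 14785 genes with enough counts to be tested. They were measured by bulk RNA sequencing in CFPAC-1, a widely used cell line grown from a human pancreatic ductal adenocarcinoma. Of the 8 libraries, 4 came from cells with an empty vector and 4 from cells with an ADRA2A transgene, which encodes the alpha-2A adrenergic receptor, a Gi-coupled receptor for adrenaline and noradrenaline. Both groups were grown alike, for 72 hours in IMDM with 10% FBS and 1% penicillin and streptomycin, and neither was treated with a drug or a cytokine. The promoter of the transgene, and whether the cells were a pool or a single clone, are not given in the sources used here. Nothing in the labels tells whether samples within a group were cultured or transduced separately, so p-values measure the spread between these samples, which may be technical.

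In resting cells NF-kappaB dimers are held in the cytoplasm by inhibitor proteins, the IkappaBs. In the canonical branch, the IkappaB kinase (IKK) complex marks an IkappaB for destruction and frees dimers such as RELA with p50, the product of NFKB1. In the non-canonical branch, the kinase encoded by MAP3K14 drives the processing of the NFKB2 product p100 to p52, which pairs with RELB. Freed dimers induce their own brakes, among them IkappaB-alpha (NFKBIA), IkappaB-epsilon (NFKBIE) and the ubiquitin-editing enzyme A20 (TNFAIP3). In pancreatic cancer cells the pathway is often active without an added stimulus. Activity of the proteins lies in their release, movement and processing, so RNA levels do not measure it.

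Total counts lay between 14820262 and 17341489 in the empty-vector libraries and between 14427040 and 17528910 in the ADRA2A libraries, and mitochondrial genes took between 3.93% and 4.29% of counts in all 8. ADRA2A had 0 counts in all 4 empty-vector libraries and between 112 and 172 in the ADRA2A libraries, as labelled. The epithelial marker list summed to between 11837 and 12391 counts-per-million (CPM) in the empty-vector libraries and between 11521 and 12626 CPM in the ADRA2A libraries, although CFTR, a ductal marker, was too low to test. The similar sums hide changes of single markers. Of the 7 tested, 2 were higher and 4 lower with ADRA2A (edgeR adjusted p under 0.05), a share of 85.7% beside 42.7% of all genes tested. The T-cell gene CD3E and the B-cell gene MS4A1 were at 0 counts in every library, and the pan-leukocyte gene PTPRC had at most 0.113 CPM on average in either group. The leukocyte list summed to between 30.7 and 39.2 CPM with the empty vector and between 82.4 and 97.8 CPM with ADRA2A, mostly from LYZ. The fibroblast list went from between 78.2 and 82.5 CPM to between 23.9 and 26.4 CPM, mostly from COL1A1. Of the 7 fibroblast genes COL3A1, DCN and PDGFRB had at most 0.201 CPM on average in either group. The endothelial list summed to between 2.05 and 3.35 CPM over all 8 libraries. Of its 4 genes 2 were tested, and 1 was called higher and 1 lower with ADRA2A, beside 42.7% of all genes tested. The part of these marker levels in the results was not tested.

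Several of the genes carry letters in their promoters that match the DNA motif bound by NF-kappaB. These are shown because some of the genes are known to be induced by NF-kappaB itself. RefSeq promoter windows on GRCh38.p14, from 250 bases before to 50 bases after an annotated start, were available for 8 of the 10 genes in 14 windows. NFKBIE and RELB had none. The NF-kappaB consensus was searched on both strands, where overlapping matches count separately. A match stood in 7 of the 14 windows, against 5.91% of all 35116 windows in the table, and 6 of the 8 genes held at least 1. No window of RELA or TRAF1 held one. Genes with several starts have several windows, so the share of genes and that of windows are not over equal units. Stretches before the start are given below for 3 feedback genes, 5′ to 3′ on the strand of the gene, with matches in capitals. Those of NFKBIA and BIRC3 run up to the RefSeq start, and that of TNFAIP3 ends 45 bases before it, where the GENCODE gene begins. All matches in these 3 genes read as the consensus on the opposite strand.
TNFAIP3, chr6:137867009-137867213, plus strand: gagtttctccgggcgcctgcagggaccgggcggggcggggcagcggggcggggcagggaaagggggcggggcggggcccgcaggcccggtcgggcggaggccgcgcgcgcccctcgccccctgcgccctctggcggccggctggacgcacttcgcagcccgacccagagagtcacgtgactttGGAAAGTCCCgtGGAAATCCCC
NFKBIA, chr14:35404750-35404999, minus strand: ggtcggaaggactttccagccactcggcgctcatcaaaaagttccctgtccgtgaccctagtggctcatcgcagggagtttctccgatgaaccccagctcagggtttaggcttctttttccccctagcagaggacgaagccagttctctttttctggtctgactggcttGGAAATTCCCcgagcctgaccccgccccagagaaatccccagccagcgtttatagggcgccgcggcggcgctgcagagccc
BIRC3, chr11:102317234-102317483, plus strand: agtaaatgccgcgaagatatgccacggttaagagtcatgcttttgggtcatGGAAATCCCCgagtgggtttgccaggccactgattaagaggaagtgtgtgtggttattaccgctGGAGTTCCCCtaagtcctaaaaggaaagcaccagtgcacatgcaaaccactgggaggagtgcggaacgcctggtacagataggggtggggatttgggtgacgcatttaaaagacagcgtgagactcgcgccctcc

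The 2 TNFAIP3 matches begin 67 and 55 bases before the RefSeq start, that of NFKBIA 81 bases before it, and the 2 of BIRC3 199 and 135 bases before it. Among the subunit genes, the first NFKB1 window held GGGAATTTCC at chr4:102501310-102501319, beginning 49 bases before the start. The same 10 letters, read on the opposite strand, stood in the REL window at chr2:60881528-60881537. NFKB2 held matches in 2 of its 3 windows, of which the nearest to a start was GGGACTTTCC at chr10:102395684-102395693. TNFAIP3 carries those same letters on its opposite strand, at chr6:137867192-137867201. A match describes the letters and does not show that a factor was bound in these cells.

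Compared with the empty-vector cells, 4 of the 10 genes were lower in the ADRA2A cells and 0 were higher, by edgeR's quasi-likelihood test with Benjamini-Hochberg adjustment over all genes tested (adjusted p under 0.05). Those that fell were TNFAIP3, RELB, NFKBIE and NFKB2. The comparison moved much of the transcriptome: 42.7% of all genes tested passed this threshold, 21.6% higher and 21.1% lower. The share of 40% in this family is therefore close to that of genes at large. For 3 of the 10 (TNFAIP3, RELB and NFKBIE) all ADRA2A libraries lay below all empty-vector libraries, and for 0 they lay above. Such separation occurred in 39.2% of all genes tested, 19.7% with ADRA2A higher and 19.5% with ADRA2A lower. Over the 10 genes the log2 fold change had a median of -0.12, beside 0.00 for all genes tested. Of the 10 fitted values 7 were below 0 and 3 above. In bulk RNA, fewer cells that express a gene and less RNA per cell cannot be told apart.

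**Figure D1:**
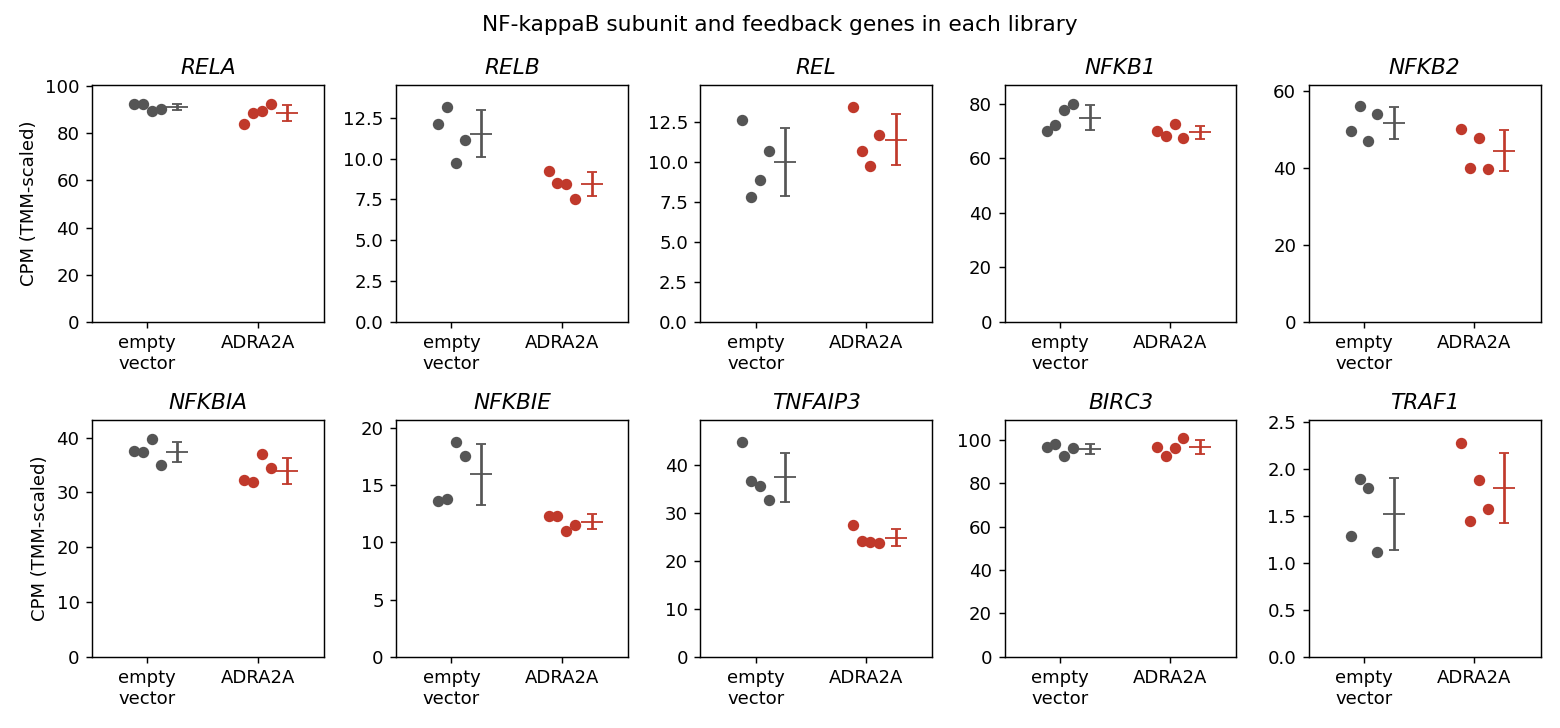
Level of each gene in TMM-scaled CPM (vertical axis, from 0) in the 4 empty-vector (grey) and 4 ADRA2A (red) libraries, each dot a library, with the mean and SD beside the dots. TNFAIP3, RELB and NFKBIE are the 3 panels in which all 4 ADRA2A libraries lie below all 4 empty-vector libraries, while BIRC3 stays between 92.6 and 101 CPM throughout.

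Among the subunits, RELA encodes p65, the strongly activating partner of the canonical dimer. Its gene lies on the minus strand of chromosome 11 (GRCh38, 65653599 to 65663090). RELA stood at 92.5, 92.4, 89.6 and 90.1 CPM in empty-vector replicates 1 to 4 and at 83.9, 88.7, 89.3 and 92.2 CPM in ADRA2A replicates 1 to 4. Of the ADRA2A libraries 3 lay below the empty-vector minimum, replicate 1 by the widest gap, and replicate 4 lay inside the range. The log2 fold change of RELA was -0.04 with a 95% interval from -0.13 to 0.05 (edgeR adjusted p = 0.452). NFKB1 (chromosome 4, 102501330 to 102617302, plus strand), the gene of p105 and p50, had 70.1, 72.0, 77.7 and 79.8 CPM with the empty vector and 69.8, 68.1, 72.4 and 67.4 CPM with ADRA2A. Of the ADRA2A libraries 3 lay below the empty-vector minimum and the fourth inside its range. The log2 fold change of NFKB1 was -0.11 (95% interval -0.21 to -0.01), which did not pass the threshold (edgeR adjusted p = 0.0808). It passed with upper quartile factors (adjusted p = 0.0432) and without empty-vector replicate 1 (adjusted p = 0.0351).

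RELB encodes the partner of p52 in the non-canonical branch and is itself induced by NF-kappaB. RELB (chromosome 19, 45001461 to 45038192, plus strand) had 12.1, 13.2, 9.76 and 11.1 CPM in the empty-vector libraries and 9.27, 8.51, 8.47 and 7.53 CPM in the ADRA2A libraries. Every ADRA2A library lay below every empty-vector library, although the gap between the nearest pair was small. RELB fell by 0.45 ± 0.11 on the log2 scale (SE, n = 4 against 4), from 11.5 ± 1.45 to 8.45 ± 0.715 CPM (SD; edgeR adjusted p = 0.00251).

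NFKB2 (chromosome 10, 102394110 to 102402524, plus strand), the gene of p100 and p52, had 49.5, 56.1, 47.1 and 53.9 CPM with the empty vector. With ADRA2A it had 50.2, 40.1, 47.9 and 39.8 CPM. ADRA2A replicates 2 and 4 were low, while replicates 1 and 3 lay inside the empty-vector range. NFKB2 fell by 0.21 ± 0.07 on the log2 scale (SE, n = 4 against 4; edgeR adjusted p = 0.0235), the smallest of the 4 changes. This call rested on single libraries: it was lost without empty-vector replicate 2 (adjusted p = 0.0862), empty-vector replicate 4 (0.0712), ADRA2A replicate 2 (0.0888) or ADRA2A replicate 4 (0.088).

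REL encodes c-Rel, the subunit best known from lymphocytes, and was scarce here. REL (chromosome 2, 60881491 to 60931612, plus strand) had 12.6, 7.80, 8.89 and 10.7 CPM with the empty vector and 13.4, 10.7, 9.73 and 11.7 CPM with ADRA2A. The groups overlapped widely, and replicate 1 was the highest of each group. The log2 fold change of REL was 0.18 with a 95% interval from -0.10 to 0.46 (edgeR adjusted p = 0.295). In GENCODE release 44, 5702 exonic bases of REL are shared with a long non-coding gene on the same strand, listed in the table as AC010733.2, so the estimated counts of REL depend on how reads were divided between them. AC010733.2 held between 100.5 and 137.6 counts per library. REL and AC010733.2 together stood between 14.9 and 19.97 CPM with the empty vector and between 17.3 and 20.7 CPM with ADRA2A.

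The IkappaB genes encode the proteins that hold dimers in the cytoplasm, and their induction ends a response. NFKBIA (chromosome 14, 35401079 to 35404749, minus strand) had 37.5, 37.3, 39.7 and 35.0 CPM with the empty vector. With ADRA2A it had 32.3, 31.9, 37.1 and 34.5 CPM. Of the ADRA2A libraries 3 lay below the empty-vector minimum, and replicate 3 lay inside that range. The log2 fold change of NFKBIA was -0.14 (95% interval -0.27 to -0.01) and did not pass the threshold (edgeR adjusted p = 0.0791). Without ADRA2A replicate 3 it did (log2 fold change -0.18, adjusted p = 0.027).

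NFKBIE encodes IkappaB-epsilon, which is made later in a response than IkappaB-alpha. NFKBIE (chromosome 6, 44258166 to 44265788, minus strand) had 13.6, 13.8, 18.8 and 17.6 CPM in the empty-vector libraries and 12.3, 12.3, 10.99 and 11.5 CPM in the ADRA2A libraries. The groups did not overlap, and the empty-vector libraries split into a lower and a higher pair. NFKBIE fell by 0.44 ± 0.11 on the log2 scale (SE), from 16.0 ± 2.65 to 11.8 ± 0.656 CPM (SD, n = 4 each; edgeR adjusted p = 0.00232). In each fit that left out 1 library it remained called, with log2 fold changes between -0.51 and -0.35. The ratio of NFKBIE to NFKBIA CPM within a library ran from 0.362 to 0.503 with the empty vector and from 0.296 to 0.387 with ADRA2A, so the groups overlapped on this measure.

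TNFAIP3 showed the largest difference of the 10. It encodes A20, which removes and adds ubiquitin chains on signalling proteins such as RIPK1 and so shuts down IKK. TNFAIP3 (chromosome 6, 137867214 to 137883314, plus strand) had 44.8, 36.7, 35.8 and 32.8 CPM in the empty-vector libraries and 27.5, 24.2, 23.9 and 23.8 CPM in the ADRA2A libraries. All 4 ADRA2A libraries lay below all 4 empty-vector libraries, and replicate 1 was the highest of each group. TNFAIP3 fell by 0.60 ± 0.08 on the log2 scale (SE), from 37.5 ± 5.13 to 24.8 ± 1.77 CPM (SD, n = 4 each; edgeR adjusted p = 7.6e-06). That is 0.66 of the empty-vector level, and it placed TNFAIP3 at the 5.04th percentile of log2 fold changes of all genes tested. Leaving out the highest empty-vector library, replicate 1, gave a log2 fold change of -0.50 (adjusted p = 1.45e-05).

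BIRC3 encodes cIAP2, a ubiquitin ligase that attaches chains to RIPK1 and restrains cell death, and its RNA did not follow that of TNFAIP3. BIRC3 (chromosome 11, 102317484 to 102339403, plus strand) had 96.7, 98.1, 92.6 and 96.2 CPM with the empty vector and 96.8, 92.8, 96.5 and 101 CPM with ADRA2A. The groups overlapped almost entirely. The log2 fold change of BIRC3 was 0.01 with a 95% interval from -0.07 to 0.10 (edgeR adjusted p = 0.819), so the interval excludes a fall of the size seen in TNFAIP3. Within a library the ratio of TNFAIP3 to BIRC3 CPM ran from 0.341 to 0.463 with the empty vector and from 0.236 to 0.284 with ADRA2A, without overlap. This pair was chosen after the values were seen, and no test of the ratio is given.

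TRAF1, which encodes an adaptor that binds cIAP1 and cIAP2, was close to the lower limit of what could be tested, with between 17 and 33 counts per library. TRAF1 (chromosome 9, 120902393 to 120929173, minus strand) had 1.29, 1.90, 1.80 and 1.11 CPM with the empty vector and 2.28, 1.45, 1.89 and 1.58 CPM with ADRA2A. The groups overlapped, and no difference was detectable at this depth: the log2 fold change was 0.24 with a 95% interval from -0.32 to 0.79 (edgeR adjusted p = 0.502).

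Neighbouring genes were examined so that each gene could be read beside its chromosome surroundings. Within 5 Mb of TNFAIP3, 30 other tested genes had a median log2 fold change of -0.05, with 7 called higher and 9 lower. Over all genes tested, 21.6% were called higher and 21.1% lower. Around NFKBIE, on the other arm of the same chromosome, the median of 74 genes was 0.00, with 16 called higher and 20 lower. Around RELB the median of 230 genes was -0.04, with 27 called higher and 56 lower. The changes of these 3 genes were larger than the median of their surroundings. They had the largest falls of the 10 genes, and these medians lay near the 0.00 of all genes tested. The comparison could therefore hardly come out otherwise. For NFKB1 the neighbours had a median of -0.10 over 32 genes, close to its own -0.11. With other windows that median was -0.06 over 11 genes (2 Mb) and -0.08 over 58 genes (10 Mb). A small change lies near such medians in any case, as for RELA (-0.04, neighbours -0.02) and BIRC3 (0.01, neighbours 0.02). Around NFKB2 the median of 91 genes within 5 Mb was -0.08. The part of a shared shift in the values of any of these genes was not tested.

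**Figure D2:**
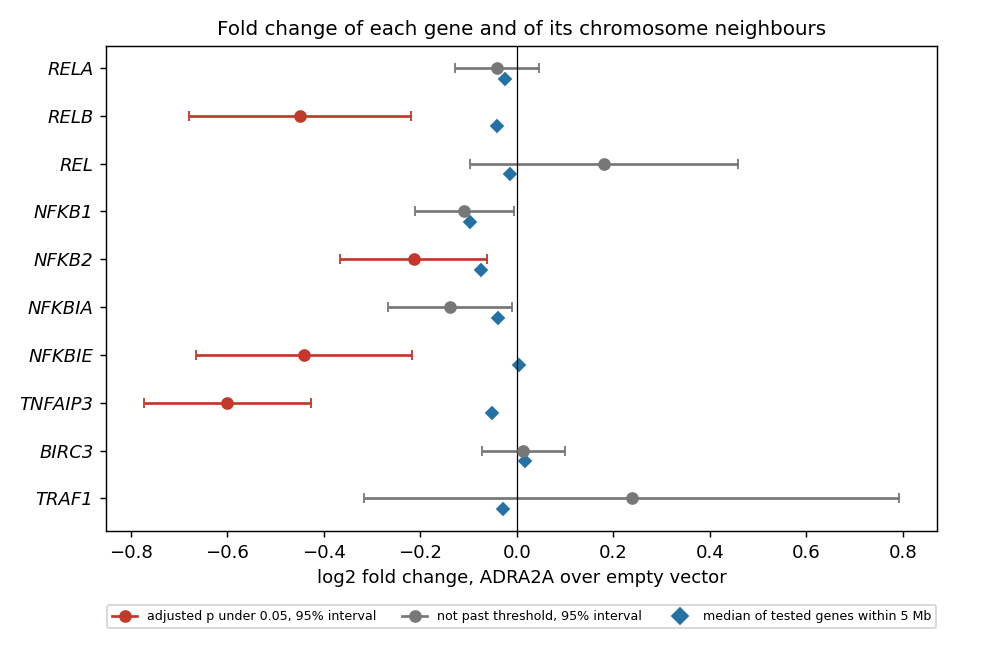
Log2 fold change of each gene, ADRA2A over empty vector (horizontal axis), with its 95% interval, in red where the adjusted p is under 0.05 and in grey otherwise, and the median log2 fold change of the tested genes within 5 Mb as a blue diamond. TNFAIP3 at -0.60, RELB at -0.45 and NFKBIE at -0.44 lie apart from their diamonds. The NFKB1 value of -0.11 lies beside its diamond at -0.10, and the small values of RELA and BIRC3 lie beside theirs.

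Levels of different genes were set side by side as CPM per kb of exon. Over the union of all annotated exons, RELA was the highest in the empty-vector cells at 16.7 ± 0.27 CPM per kb (SD, n = 4), followed by BIRC3 at 12.8 ± 0.311, NFKBIA at 11.02 ± 0.561 and NFKB2 at 9.25 ± 0.737 CPM per kb. Then came NFKBIE at 6.19 ± 1.03, TNFAIP3 at 5.82 ± 0.796 and NFKB1 at 4.78 ± 0.292 CPM per kb. NFKBIE and TNFAIP3 did not differ beyond their spread. RELB, at 3.85 ± 0.484 CPM per kb, stood above the scarce REL at 0.583 ± 0.122 and TRAF1 at 0.341 ± 0.0858 CPM per kb. Dividing by the longest transcript instead left RELA first, at 28.6 CPM per kb, and REL and TRAF1 last, but put NFKB2 second at 15.1 and moved NFKB1 to 10.6 CPM per kb. The middle of the order therefore depends on which transcripts the cells make, which gene counts do not show. Within libraries, the ratio of RELB to RELA CPM ran from 0.109 to 0.143 with the empty vector and from 0.0816 to 0.110 with ADRA2A. The groups therefore overlapped slightly on this ratio.

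**Figure D3:**
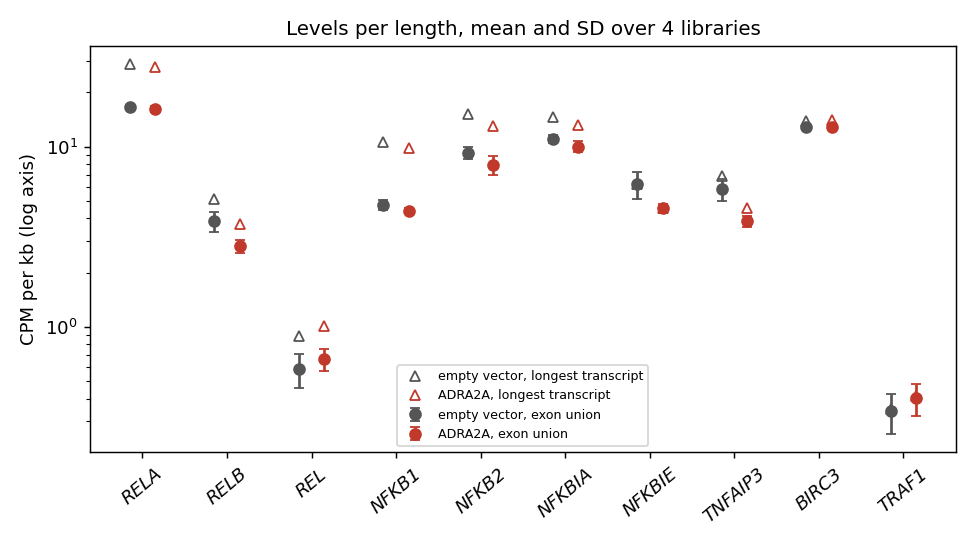
Mean level of each gene in CPM per kb (vertical log axis) in empty-vector (grey) and ADRA2A (red) libraries, over the exon union with SD over 4 libraries (dots) and over the longest transcript (triangles). RELA is highest and TRAF1 lowest on both measures, and NFKB1 differs most between them.

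The rest of the pathway was read from 4 lists, to be set beside all genes tested, of which 21.6% were called higher and 21.1% lower. The IKK complex and its upstream kinases had 16 genes, all tested, of which 3 were higher and 6 lower (edgeR adjusted p under 0.05), and the median log2 fold change was -0.03. The share called was 56.2%, beside 42.7% of all genes tested. The catalytic subunit gene IKBKB rose by 0.30 ± 0.05 on the log2 scale (SE), from 37.5 ± 2.03 to 46.1 ± 1.86 CPM (SD, n = 4 each; edgeR adjusted p = 0.000177). The regulatory subunit gene IKBKG, which has a near-identical pseudogene that makes its counts uncertain, fell by 0.27, and the related kinase gene IKBKE fell by 0.23 on the log2 scale. TAB3, whose product ties the kinase TAK1 to ubiquitin chains, rose by 0.42, and RIPK1, the target of A20, rose by 0.15. IRAK2, a kinase-like gene of interleukin-1 and Toll-like receptor signalling, fell by 0.50, from 16.6 ± 1.34 to 11.7 ± 0.952 CPM (SD, n = 4 each). The call of IKBKG was lost without empty-vector replicate 1 (adjusted p = 0.0585), ADRA2A replicate 2 (0.0519) or ADRA2A replicate 4 (0.0734), and that of RIPK1 without empty-vector replicate 2 (0.0788) or 4 (0.0592).

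Of 25 adaptors, ubiquitin enzymes and other inhibitors, 23 were tested, with 2 higher and 7 lower and a median log2 fold change of -0.01. The share called was 39.1%, beside 42.7% of all genes tested (21.6% higher and 21.1% lower). TNIP3 was too low to test, and no row of the deposited table carried the symbol NFKBID. NFKBIZ, the gene of the nuclear inhibitor-like protein IkappaB-zeta that works with NF-kappaB on secondary targets such as LCN2, rose where NFKBIE fell. Its libraries stood at 125, 127, 101 and 121 CPM with the empty vector and at 246, 223, 240 and 266 CPM with ADRA2A. NFKBIZ rose by 1.04 ± 0.06 on the log2 scale (SE, n = 4 against 4; edgeR adjusted p = 4.38e-11). TRAF5 rose by 0.63, while TRAF2, whose product joins receptors to cIAP proteins, fell by 0.26 on the log2 scale. RBCK1, which encodes HOIL-1 of the linear ubiquitin ligase complex, fell by 0.44, from 223 ± 15.0 to 164 ± 5.26 CPM (SD, n = 4 each), and NFKBIB, the gene of IkappaB-beta, fell by 0.31.

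Receptors and ligands that feed the pathway numbered 36, of which 26 were tested, 11 higher and 5 lower, with a median log2 fold change of 0.17. Called genes made up 61.5% of those tested, beside 42.7% of all genes tested (21.6% higher and 21.1% lower). TNF, LTA, LTB, IL1A and IL1B, ligands that switch the pathway on, were among the 10 too low to test. TNFSF10, the gene of the death ligand TRAIL, rose by 1.28 on the log2 scale, from 34.5 ± 4.27 to 83.5 ± 6.23 CPM (SD, n = 4 each). TNFRSF11A, the gene of RANK, and EDAR rose by 0.87 and 1.17. The lipopolysaccharide receptor gene TLR4 fell by 1.07 on the log2 scale, with 13.0 ± 0.766 CPM under the empty vector and 6.16 ± 0.698 CPM under ADRA2A (SD, n = 4 each). TLR6 fell by 0.58. For both genes every ADRA2A library lay below every empty-vector library, as it did for 19.5% of all genes tested. TNFRSF1B, the gene of the second TNF receptor, fell by 0.99 on the log2 scale at between 1.32 and 4.53 CPM.

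Of 45 other known NF-kappaB target genes, 36 were tested, of which 9 were higher and 13 lower, with a median log2 fold change of -0.04, so the targets went both ways. The 3 lowest were VCAM1, PTX3 and PTGS2. The adhesion molecule gene VCAM1 fell by 2.18 on the log2 scale (edgeR adjusted p = 2.69e-12), with 21.2 ± 2.18 CPM with the empty vector and 4.69 ± 0.439 CPM with ADRA2A (SD, n = 4 each). PTX3, a soluble pattern recognition gene, fell by 1.80 and PTGS2, the gene of cyclooxygenase 2, by 1.44 on the log2 scale. The 3 highest were C3, LCN2 and ELF3. The complement gene C3 rose by 1.56 and the iron-binding lipocalin gene LCN2 by 1.47 on the log2 scale, the latter from 352 ± 39.9 to 974 ± 16.5 CPM (SD, n = 4 each). ELF3, an epithelial ETS factor gene, rose by 0.66. The share called in the target list was 61.1%, to be read against 42.7% of all genes tested (21.6% higher and 21.1% lower).

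By the rule for likeness, Pearson's r of log2 CPM over the 8 libraries was computed between TNFAIP3, the lowest member by fold change, and each of 12990 genes. The nearest were BAG6 (r = 0.991), EVI2B (r = 0.987) and ENOSF1 (r = 0.976), and 399 genes had an r over 0.9. EVI2B went from 6.52 ± 1.41 to 2.85 ± 0.443 CPM (SD, n = 4 each), whereas BAG6 differed by a log2 fold change of only -0.05. For TRAF1, the highest member, the nearest were MGAT1 (r = 0.943), PUS10 (r = 0.940) and OSGIN2 (r = 0.911). With 8 points that share their group these values only describe the libraries.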

How the data were processed

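The deposited table holds estimated counts from RSEM for each gene, with decimals where reads were divided between genes. Per the submitters' processing notes, the build was hg38 and the tools named were cutadapt, STAR, RSEM and DESeq2, and their settings, the annotation release and the use of strand are not given in the sources used here. All 8 columns were matched to samples by the name in each title, leaving 0 unassigned.

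Estimated counts were rounded. Genes were kept by filterByExpr (minimum count 10, minimum total 15), which left 14785 of 58870. Counts were scaled with TMM factors (edgeR's trimmed mean method) and tested with edgeR 4.0.16 (glmQLFit, glmQLFTest; R 4.3.3), with the group as the only term and Benjamini-Hochberg adjustment over all genes tested. The standard error is the absolute log2 fold change divided by the square root of F, and intervals are 95%. On simulated data for this comparison over 14785 genes, 32 of 50 genes changed by a 25% rise or the matching fall were recovered, 41 of 50 changed 1.5-fold and 49 of 50 changed 2-fold. Every simulated gene had the same biological coefficient of variation, 4.96%, and a far smaller share was changed than the 42.7% called here. The recovery therefore does not describe genes that vary more.

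Positions and exon lengths came from GENCODE release 44, and promoters from RefSeq on GRCh38.p14. SOD2 stands on 2 rows of the table, and the row that passed the filter was used.

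Named genes were all members, ADRA2A, up to 3 called genes in each direction per pathway list, if the higher group averaged 2 CPM or more, and the 3 genes most like the highest and the lowest member. BIRC3 ratios, AC010733.2 and genes named as untested were chosen after their values were seen. The other ratios between genes were not part of the plan either. The members and lists were chosen with earlier results of these data known. Alternatives were DESeq2 1.42.0, limma 3.58.1 voom, RLE and upper quartile factors, other filters, a block for the replicate number, and the omission of single libraries.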

Additional observations from a re-analysis of the deposited data

Results flagged for a closer look

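Among the 20 sets of 4 libraries examined (10 genes in each group), 1 held a library far from its neighbours: TNFAIP3 in ADRA2A replicate 1, at 27.5 CPM where the other 3 lay between 23.8 and 24.2 CPM. About 1 set in 20 is expected to show this by chance. Without that library the log2 fold change of TNFAIP3 was -0.65 (edgeR adjusted p = 1.57e-05).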

How the results depend on the processing

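The number of the 10 genes called was 4, and it was 5 with upper quartile factors, 4 under the other 6 settings, and between 3 and 5 when each of the 8 libraries was left out in turn. TNFAIP3, RELB and NFKBIE kept their direction and their call in all 15 alternatives. With upper quartile factors NFKB1 was called (log2 fold change -0.13) and BIRC3, never called, changed sign (-0.00364). Over the fits that left out 1 library, log2 fold changes lay between -0.0066 and 0.0341 for BIRC3, -0.14 and -0.0777 for NFKB1, -0.27 and -0.16 for NFKB2, and -0.18 and -0.11 for NFKBIA. The cause of these changes was not tested. TRAF1 did not pass the filter at a mean of 50 counts and has no value there. Counts over all genes lay between 5823 and 6550 under the 7 other settings and between 5703 and 6042 without 1 library, beside 6314. Same-numbered replicates did not deviate together (r from -0.0764 to 0.144 over 12325 genes), so the numbers were not taken as pairs. With the replicate number as a block, 6400 genes were called, 4 members among them, with a TNFAIP3 log2 fold change of -0.59. With a looser motif, which fixes only the 3 first and 2 last letters, all 8 genes with a window held a match, but so did 58.7% of all windows. Depth limits TRAF1 most.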
